A study of Homo sapiens with 6 samples.

Results

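The NME genes encode nucleoside diphosphate kinases, and 6 of them (NME1, NME2, NME3, NME4, NME6 and NME7) are described here out of 39771 rows of a gene table of the human leukaemia line MOLM-13. The members were chosen by symbol, as NME4 and its family. NME4 was taken up because its difference between the groups was known from these libraries, so the differences of all 6 members are given as estimates with no test. Each symbol was matched to 1 Ensembl identifier, and all 6 were in the table and passed the filter on low values, a minimum of 1 TPM in 2 or more libraries. TPM is a relative abundance scaled by transcript length.

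MOLM-13 is an established acute myeloid leukaemia line that carries the MLL-AF9 translocation, and every library came from it. The cells had received a lentiviral hairpin, followed by puromycin selection. In 4 libraries (shLAMP5) it was directed against LAMP5, which encodes a lysosome-associated membrane protein, and in 2 control libraries (shNT) it was non-targeting. All groups are therefore transduced and selected cells of a single line. The sources used here do not say which hairpin sequence each shLAMP5 library received or when it was harvested. Whether replicate libraries are separate cultures is also not stated, and their spread may therefore be technical.

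Nucleoside diphosphate kinases move the terminal phosphate of ATP onto other nucleoside diphosphates through a phosphorylated histidine, and so supply GTP, CTP, UTP and the deoxynucleotides for DNA synthesis. NME1 and NME2 are the abundant cytosolic enzymes, and NME4 is imported into mitochondria, where it binds cardiolipin and supplies GTP to the dynamin-like GTPase OPA1. NME3 sits at the mitochondrial outer membrane, NME6 is a mitochondrial protein with little kinase activity of its own, and NME7 is a component of the gamma-tubulin ring complex, which nucleates microtubules.

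The coding sequences were compared to describe how alike these genes are. Percent identity does not itself show how far reads can tell them apart, and the exact sequences shared between genes are counted further below. In the principal transcripts of GENCODE release 29, the coding sequences of NME1 and NME2 were 80.9% identical over 456 aligned bases. NME1 shared 65.4% with NME3 and 59.7% with NME4, and NME3 shared 64.4% with NME4. The 60-base window of NME1 that was best conserved in the other 3 is printed below, 5′ to 3′, at coding bases 193 to 252 of NME1 and NME2, 244 to 303 of NME3 and 292 to 351 of NME4, counted from the A of the start codon. Capitals mark bases that differ from NME1, of which NME2 had 5, NME3 12 and NME4 17.
NME1: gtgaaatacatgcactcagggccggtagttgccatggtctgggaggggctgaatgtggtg
NME2: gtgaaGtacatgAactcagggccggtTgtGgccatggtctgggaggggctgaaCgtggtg
NME3: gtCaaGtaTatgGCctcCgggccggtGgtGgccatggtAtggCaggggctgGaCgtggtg
NME4: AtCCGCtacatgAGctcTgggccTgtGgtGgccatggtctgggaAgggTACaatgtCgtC

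NME1 and NME2 lie next to each other on the same strand, and the annotation also holds a readthrough gene, NME1-NME2, that joins them. Kallisto assigns reads by shared 31-mers at its usual setting, so 31-mers were counted in the GENCODE transcripts, which may not be the set the authors used. Of 1263 distinct 31-mers in the NME1-NME2 transcripts, 24 (1.9%) occurred in no other gene. NME1 held 50.2% of them and NME2 47.9%. Of the NME1 31-mers 79.6% occurred only in NME1, and for NME2 the share was 75.7%. How the authors' values divide reads among these 3 rows is therefore uncertain, and their sum is given beside each. For NME4, 86.5% of 31-mers occurred only there, and 13.4% were shared with DECR2, the adjacent gene, which encodes a peroxisomal reductase. The shares were 99.9% for NME3, 82.1% for NME6 and 93.1% for NME7.

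NME4 (ENSG00000103202) had lower values in shLAMP5. It measured 64.3 and 92.1 TPM in shNT 1 and 2, and 19.5, 27.2, 17.8 and 23.2 TPM in shLAMP5 1 to 4. Every shLAMP5 value was under both shNT values, and the highest of them was 42.3% of the lowest shNT value. The shNT mean was 78.2 ± 19.6 TPM (SD, n = 2). The shLAMP5 mean, 21.9 ± 4.19 TPM (SD, n = 4), was 28.0% of it. On the log2(TPM + 1) scale, which is used for every fold change here, the difference (shLAMP5 minus shNT) was -1.79 (SE 0.25, 95% interval -2.35 to -1.22). It was -2.04 without shNT 1 and -1.53 without shNT 2. Among the 2780 tested genes with a mean level at or above that of NME4, its difference was the most negative, and across all 13072 tested genes it ranked 14 from the lowest. These ranks describe the contrast by which NME4 was chosen. In bulk RNA, fewer cells that express a gene and less of its RNA per cell cannot be told apart.

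In the whole table, limma called 0 of 13072 genes (0%) at an adjusted p of 0.05, where 1172 had an unadjusted p under 0.05, of which 686 (5.25%) were lower and 486 (3.72%) higher in shLAMP5. The count was 210 with library weights, 14 with no filter on low values and 16 with the replicate number as a block. Depth is unknown because TPM keeps no record of read number. NME1 and NME4, which are 2 of the 6 members, lay below both shNT libraries in all 4 shLAMP5 libraries, against a background of 13.5% of all genes. None of the 6 lay above both, where the background was 8.25%. NME4 was chosen for this contrast and its family with these results known, so nothing is read from these counts.

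NME1 (ENSG00000239672), a cytosolic kinase first known as a metastasis suppressor, measured 287 and 315 TPM in shNT and 267, 157, 160 and 250 TPM in shLAMP5 1 to 4. Here the groups did not overlap, but shLAMP5 1 was at 93.0% of the lowest shNT value, and shLAMP5 2 and 3 were the low libraries. The mean was 301 ± 19.5 TPM (SD, n = 2) in shNT and 208 ± 58.1 TPM (SD, n = 4) in shLAMP5. The log2 fold change came to -0.57 (SE 0.27, 95% interval -1.19 to 0.052), and -0.32 with library weights.

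The NME1-NME2 row (ENSG00000011052) was the most abundant of the family, at 784 and 888 TPM in shNT and 725, 552, 646 and 728 TPM in shLAMP5 1 to 4. These groups did not overlap either, with shLAMP5 2 the lowest library. The log2 fold change came to -0.34 (SE 0.18, 95% interval -0.76 to 0.074).

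The NME2 row (ENSG00000243678), for the kinase that also binds DNA and is also called PuF, was far lower. It measured 17.1 and 29.3 TPM in shNT and 22.3, 18.2, 52.7 and 29.5 TPM in shLAMP5 1 to 4. Values of both groups overlapped, and shLAMP5 3 stood highest. The log2 fold change came to 0.32 (SE 0.42, 95% interval -0.64 to 1.28). It was -0.049 without shNT 1, 0.69 without shNT 2 and 0.030 without shLAMP5 3.

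Summed before the log, the NME1, NME2 and NME1-NME2 rows gave 1089 and 1233 TPM in shNT and 1014, 727, 859 and 1007 TPM in shLAMP5 1 to 4. This sum was lower in each shLAMP5 library than in both shNT libraries, with shLAMP5 1 and 4 closest to shNT 1. Its log2 fold change came to -0.37 (SE 0.19, 95% interval -0.81 to 0.064). The readthrough row took 72.0% and 72.1% of the sum in shNT, and 71.5%, 75.9%, 75.2% and 72.3% in shLAMP5 1 to 4. The NME2 row took between 1.57% and 2.93% of it in 5 libraries and 6.14% in shLAMP5 3, where the NME1 row took its smallest share, 18.6%. Because TPM is scaled by transcript length, this sum can still change with how reads were divided among the 3 rows.

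**Figure D1:**
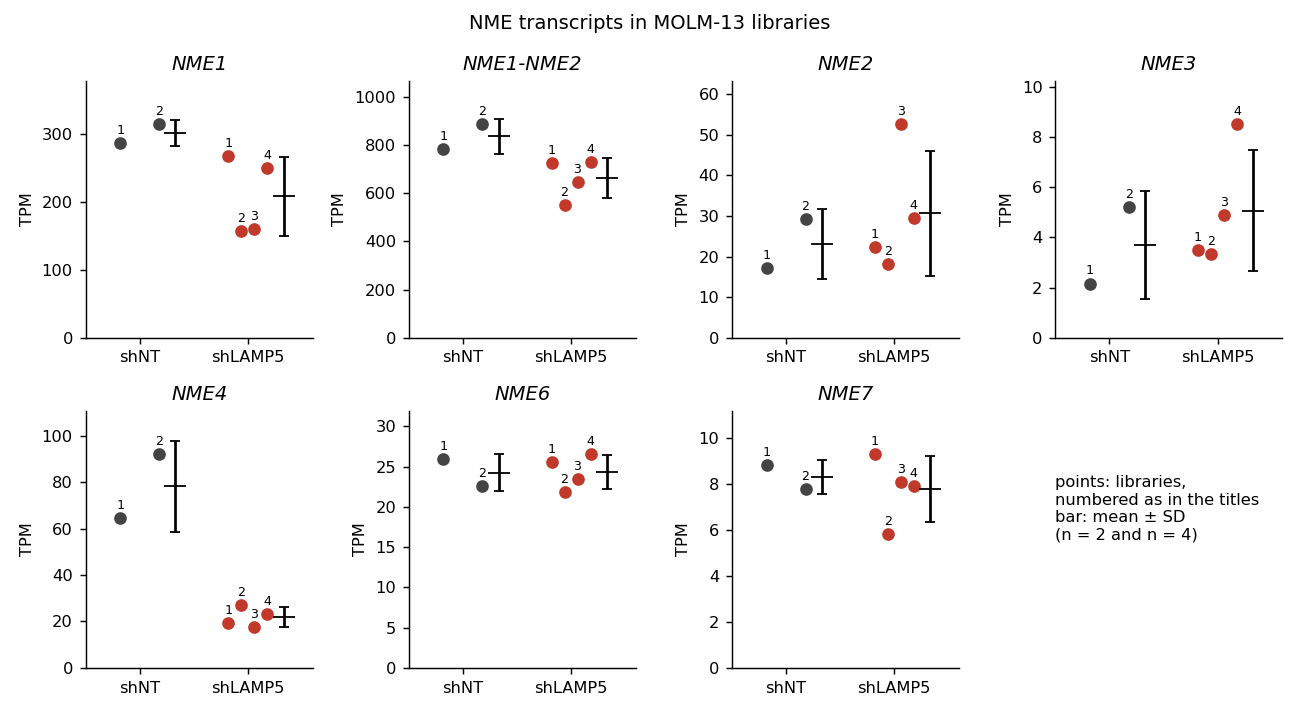
TPM of each NME row in the 2 shNT and 4 shLAMP5 libraries, on linear axes that start at 0; points are libraries numbered as in their titles, and bars give the mean ± SD. NME4 lies between 17.8 and 27.2 TPM in shLAMP5, below both shNT libraries (64.3 and 92.1 TPM), while NME6 overlaps between the groups.

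The other mitochondrial members, NME6 and NME3, had overlapping groups. NME6 (ENSG00000172113) measured 25.9 and 22.6 TPM in shNT and 25.6, 21.9, 23.5 and 26.6 TPM in shLAMP5 1 to 4. Both shNT values lay inside the shLAMP5 range. Mean TPM was 24.3 ± 2.31 in shNT (SD, n = 2) against 24.4 ± 2.12 in shLAMP5 (SD, n = 4), and the log2 fold change came to 0.005 (SE 0.19, 95% interval -0.42 to 0.43). The interval still holds changes of up to 0.43 in either direction.

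NME3 (ENSG00000103024) was the lowest of the 6, at 2.16 and 5.22 TPM in shNT and 3.49, 3.34, 4.88 and 8.52 TPM in shLAMP5 1 to 4. Values of both groups overlapped, with shLAMP5 4 the highest library and shNT 1 the lowest. Its log2 fold change of 0.37 (SE 0.40, 95% interval -0.54 to 1.29) was -0.11 without shNT 1 and 0.86 without shNT 2.

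NME7 (ENSG00000143156), the centrosomal member, measured 8.84 and 7.80 TPM in shNT and 9.32, 5.84, 8.12 and 7.91 TPM in shLAMP5 1 to 4. Values of both groups overlapped, and shLAMP5 2 was the lowest library. The log2 fold change came to -0.097 (SE 0.22, 95% interval -0.61 to 0.41).

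NME5, NME8 and NME9, family rows outside the 6 members, were near the floor of the table. NME8, of the testis and ciliary axoneme, reached at most 0.554 TPM in shNT and lay between 0.388 and 1.77 TPM in shLAMP5. NME5 was listed at 0 in 5 libraries and at 0.124 TPM in shNT 2. NME9 did not exceed 0.372 TPM in any library. NME5 and NME9 did not pass the filter.

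**Figure D2:**
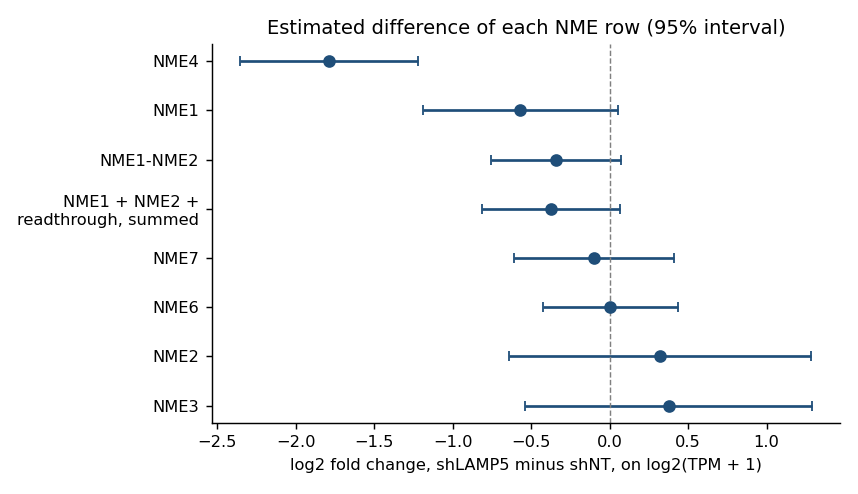
Log2 fold change (shLAMP5 minus shNT, on log2(TPM + 1)) of each NME row that passed the filter, except NME8, and of the summed NME1, NME2 and readthrough rows; points are limma estimates and bars their 95% intervals. NME4 stands at -1.79, the cytosolic rows NME1 and NME1-NME2 at -0.57 and -0.34, and NME6 at 0.005.

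TPM is scaled by transcript length, so levels can be set side by side between genes. The NME1, NME2 and NME1-NME2 rows are a limit to this, because the division of reads among them is uncertain. Of the readthrough 31-mers, 1.9% occurred in no other gene. The places of these rows below are therefore those of the deposited values and may not be those of the genes. In shNT the order of mean TPM ran NME1-NME2 (836), NME1 (301), NME4 (78.2), NME6 (24.3), NME2 (23.2), NME7 (8.32) and NME3 (3.69). The libraries of NME6 and NME2 overlapped, and no other neighbours in that order did. In shLAMP5 the order was NME1-NME2 (663), NME1 (208), NME2 (30.7), NME6 (24.4), NME4 (21.9), NME7 (7.80) and NME3 (5.06). There NME2, NME6 and NME4 overlapped, and so did NME7 and NME3. NME4 thus stood above NME6 in both shNT libraries, at 2.48 and 4.07 times its TPM, and at 0.762, 1.24, 0.757 and 0.873 times in shLAMP5 1 to 4. Of the summed TPM of NME3, NME4 and NME6, NME4 made up 69.6% and 76.8% in shNT, and 40.1%, 51.9%, 38.5% and 39.8% in shLAMP5 1 to 4. Of all 10 NME rows together it made up 5.41% and 6.77% in shNT, and from 1.81% to 3.46% in shLAMP5.

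**Figure D3:**
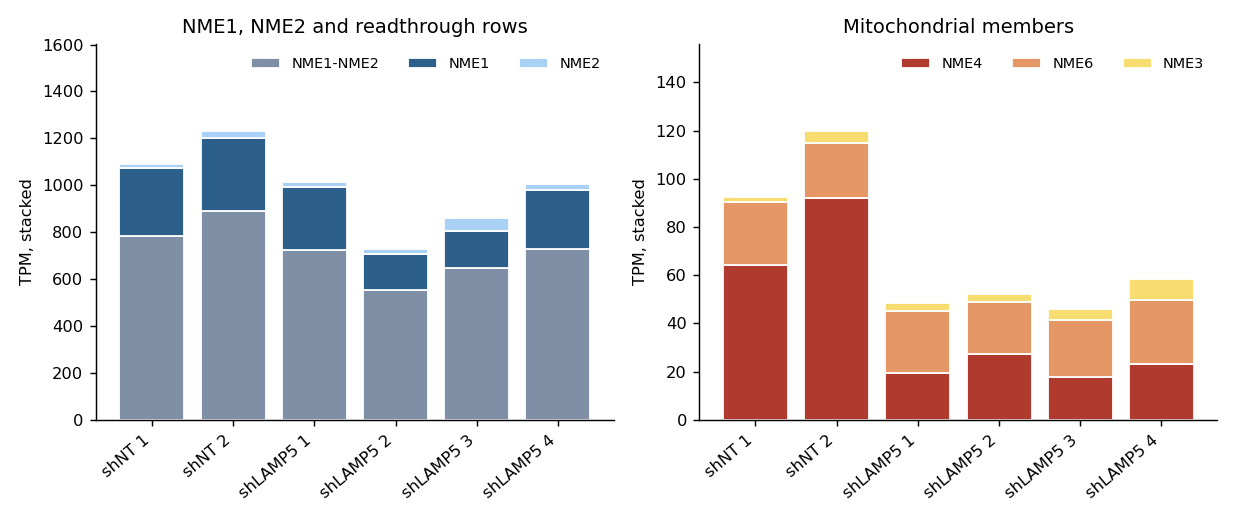
Stacked TPM per library on axes that start at 0, for the NME1, NME2 and NME1-NME2 readthrough rows (left) and the mitochondrial members NME4, NME6 and NME3 (right). The NME4 segment makes up 69.6% and 76.8% of the right-hand bars in shNT and between 38.5% and 51.9% in shLAMP5, whereas the NME6 segment keeps between 21.9 and 26.6 TPM in all 6 libraries.

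The sequence before the start of NME4 and of NME1 is shown because these 2 members lay below both shNT libraries in every shLAMP5 library. Both stretches come from the RefSeq promoter table (GRCh38.p14, plus strand), cut to the longest run before the start that no GENCODE exon covers. Capitals mark the GC box (GGGCGG on either strand), the CCAAT box (CCAAT on either strand) and the ETS motif (CCGGAAG on either strand), and neighbouring GC boxes may overlap.
NME4 chr16:397080-397191: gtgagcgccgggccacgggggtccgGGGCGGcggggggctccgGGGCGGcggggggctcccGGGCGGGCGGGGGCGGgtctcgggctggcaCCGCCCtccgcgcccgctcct
NME1 chr17:51153309-51153535: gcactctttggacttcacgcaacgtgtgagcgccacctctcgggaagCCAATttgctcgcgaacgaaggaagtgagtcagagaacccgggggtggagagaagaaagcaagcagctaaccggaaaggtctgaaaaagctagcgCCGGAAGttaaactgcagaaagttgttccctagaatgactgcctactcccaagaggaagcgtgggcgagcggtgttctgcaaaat

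The NME4 stretch of 112 bases held 6 GC boxes and was 88.4% G or C, and the NME1 stretch of 227 bases held 0 GC boxes, 1 CCAAT box and 1 ETS motif at 53.3% G or C. Over the full 250 bases before its start, NME4 held 6 GC boxes and 1 CCAAT box, at 62% G or C. NME1 held 0 GC boxes, 1 CCAAT box and 1 ETS motif over that length, at 55.2% G or C. Over the 250 bases before each of 35116 starts, 42.6% held a GC box, 32% a CCAAT box and 8.52% an ETS motif. The median over these starts was 58% G or C. The E-box CACGTG, the site of MYC and other helix-loop-helix factors, was in neither stretch, nor in the 250 bases before any of the 6 members, and 6.34% of all starts held it. A missing match says only that these letters are not in the window. The NME1-NME2 readthrough has the same start as NME1 in this table, so both rows have the same promoter sequence. GC boxes were not particular to NME4 among the members. Over 250 bases NME3 held 5 at 75.2% G or C, NME7 held 3 at 54.8% and NME6 held 1 at 71.2%. The listed starts of NME2 held 1, 3 and 4, at 59.2%, 68.8% and 77.6% G or C. A link between these motifs and the NME values was not tested.

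The genes beside NME4 were measured for comparison. DECR2, which follows NME4 and shares part of its annotated transcripts, measured 13.8 and 21.2 TPM in shNT and 19.6, 13.5, 18.5 and 19.1 TPM in shLAMP5 1 to 4. Its groups overlapped, and the log2 fold change was 0.029 (SE 0.25), or -0.26 without shNT 1 and 0.32 without shNT 2. RAB11FIP3, further along, had 0.22 (SE 0.25), or 0.058 without shLAMP5 4. Next to NME3, the mitochondrial ribosomal gene MRPS34 had -0.22 (SE 0.33), with values from -0.45 without shLAMP5 4 to -0.043 without shNT 2, and 0.077 with library weights. SPSB3 had 0.24 (SE 0.22), or 0.13 without shLAMP5 2, while EME2 did not exceed 0.202 TPM in any library. The list of 17 tested genes noted as lying near members had a median log2 fold change of 0.13, though it also held genes that are not direct neighbours.

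By Pearson correlation of log2(TPM + 1) over the 6 libraries, the 5 genes most like NME4 were MEA1 (0.987), PHF10 (0.986), SRM (0.980), HSPD1 (0.976) and TOMM7 (0.976), among 6324 genes of at least median level. SRM encodes spermidine synthase, HSPD1 the mitochondrial chaperonin and TOMM7 a subunit of the import pore of the outer mitochondrial membrane. In SRM the values were 237 and 252 TPM in shNT and 75.8, 101, 88.9 and 95.6 TPM in shLAMP5 1 to 4. HSPD1 measured 647 and 742 TPM in shNT and 293, 275, 228 and 301 TPM in shLAMP5 1 to 4. A narrower gap separated the groups in TOMM7, which measured 221 TPM in both shNT libraries and between 155 and 176 TPM in shLAMP5. Their log2 fold changes were -1.43 for SRM, -1.34 for HSPD1, -0.90 for MEA1, -0.46 for PHF10 and -0.40 for TOMM7.

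The 5 genes most like NME1 were a different set: RAN (0.999), CDKN2AIPNL (0.998), SLC25A32 (0.998), SMC1A (0.998) and POLR2D (0.997). RAN encodes the GTPase of nuclear transport, and SLC25A32 a mitochondrial folate carrier. In RAN, as in NME1, shLAMP5 2 and 3 were the low libraries, at 566 and 579 TPM against 943 and 871 TPM in shLAMP5 1 and 4 and 984 and 1053 TPM in shNT. A total of 383 genes had a correlation of at least 0.95 with NME1, and 21 with NME4. NME4 and NME1 correlated at 0.64 with each other, NME4 and NME6 at -0.17. With 6 libraries that share their group and their scaling, these values are descriptions.

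The genes around the kinases were followed in lists, and, as for the whole table, none of their tested members passed the limma test over all genes (adjusted p at or above 0.252). Over all 13072 genes the median log2 fold change was -0.0060 and 50.7% were negative. The background for a gene with all 4 shLAMP5 libraries below both shNT libraries was again 13.5%. The enzymes that make and control deoxynucleotides, the substrates of NME kinases in DNA synthesis, had negative values in 15 of 18, with a median of -0.47, and 9 of 18 lay below both shNT libraries in all 4 shLAMP5 libraries, against 13.5% of all genes. RRM1 and RRM2, the subunits of ribonucleotide reductase, measured -1.10 (SE 0.35) and -0.90 (SE 0.32) on the log2 scale, and TYMS, thymidylate synthase, -1.02 (SE 0.35). RRM1 values were 83.6 and 98.4 TPM in shNT and 65.4, 36.0, 25.9 and 49.7 TPM in shLAMP5 1 to 4. TYMS values were 157 and 187 TPM in shNT and 122, 75.7, 50.1 and 106 TPM in shLAMP5 1 to 4. In both genes shLAMP5 3 was the lowest library and shLAMP5 1 the closest to shNT. NT5C2, a nucleotidase, and TYMP, thymidine phosphorylase, had 0.43 (SE 0.28) and 0.47 (SE 0.33). TYMP was 0.26 without shLAMP5 3 and 0.097 with the replicate block, and NT5C2 was 0.19 with that block.

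Purine synthesis and salvage, the route to GTP, had negative values in 15 of 16 with a median of -0.53 (-0.27 with library weights), and 8 of 16 were below both shNT libraries, against 13.5% of all genes. PAICS and PFAS, of the de novo route, had -0.84 (SE 0.32) and -0.80 (SE 0.28), and GMPR2 was the 1 positive member at 0.12. All 3 pyrimidine genes were negative, with CAD at -0.65 (SE 0.25) and DHODH at -0.65 (SE 0.27), a median of -0.65 (-0.42 with library weights).

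The other nucleoside and nucleotide kinases, which act upstream of NME enzymes, were mixed, with 9 of 19 negative and a median of 0.009. DTYMK, the thymidylate kinase that makes the substrate for dTTP, had -0.66 (SE 0.25) and TK1, thymidine kinase of dividing cells, -0.94 (SE 0.39), or -0.62 for TK1 without shLAMP5 3. Both were among the 4 of 19 that lay below both shNT libraries in all 4 shLAMP5 libraries, against 13.5% of all genes. In this list 1 of 19 lay above both, against 8.25% of all genes. TK2, the mitochondrial thymidine kinase, had 0.50 (SE 0.33), or 0.30 without shLAMP5 3, and AK9 had 0.36 (SE 0.23).

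OPA1, which NME4 supplies with GTP, and the dynamin-like GTPases DNM1L, MFN1 and MFN2 had overlapping groups. OPA1, of the inner membrane, measured 91.9 and 106 TPM in shNT and 102, 63.0, 97.5 and 118 TPM in shLAMP5 1 to 4. Its log2 fold change was -0.089 (SE 0.27), and DNM1L, of fission, had -0.057 (SE 0.20). The mitofusins MFN1 and MFN2 had 0.027 (SE 0.22) and -0.19 (SE 0.24). With 1 library left out, OPA1 ran from -0.20 without shLAMP5 4 to 0.095 without shLAMP5 2, and MFN1 from -0.089 without shNT 1 to 0.14 without shNT 2. DNM1L was 0.025 and MFN2 -0.041 without shLAMP5 2. Of the 14 fusion and fission genes 9 were negative, with a median of -0.052, and the lowest was MTFP1 at -0.61 (SE 0.22), followed by MIEF1 at -0.48. DNM2 had 0.46 and MIEF2 0.19, or -0.007 for MIEF2 without shNT 1.

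Genes that make, remodel or organise cardiolipin, the lipid NME4 binds, had negative values in 10 of 13 and a median of -0.25. STOML2 and PHB2, scaffolds of the inner membrane, had -0.47 (SE 0.22) and -0.41 (SE 0.19), PLSCR3 0.60 (SE 0.44) and PGS1 0.062 (SE 0.25). PLSCR3 was -0.024 without shNT 1, 1.23 without shNT 2 and 0.33 without shLAMP5 3. PGS1 was between -0.026 and 0.21 with 1 library left out, lowest without shLAMP5 4 and highest without shLAMP5 2. The median was -0.12 without shLAMP5 2 and -0.072 with library weights. In the list drawn up for the intermembrane space, the compartment of NME4, all 17 tested genes were negative, with a median of -0.22. Of these, 8 of 17 lay below both shNT libraries, against 13.5% of all genes. The lowest of them, TIMM8A at -0.71 (SE 0.25) and TIMM10 at -0.65 (SE 0.20), encode small carriers of imported proteins.

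Partners of NME1 and NME2 were negative in 9 of 12, with a median of -0.26 that became -0.10 without shLAMP5 2. HMGB2, of the complex with NME1 that nicks DNA, had -0.70 (SE 0.28), ITGB1BP1 -0.59 (SE 0.20), DNM2 0.46 and KSR1 0.27, or 0.11 for KSR1 without shNT 2. In the gamma-tubulin ring complex around NME7, 7 of 10 were negative, with a median of -0.48. TUBG1, gamma-tubulin, had -0.68 (SE 0.26) and the recruiting factor NEDD1 -0.68 (SE 0.23), while TUBGCP2 had 0.34 and TUBG2 0.35, or 0.15 for TUBG2 without shLAMP5 2. Of the genes of the mitochondrial RNA module to which NME6 belongs, all 5 tested were negative with a median of -0.25 (-0.10 without shLAMP5 2), RPUSD3 at -0.46 and RPUSD4 at -0.36. RPUSD3 was -0.29 without shNT 2, and RPUSD4 was -0.23 without shLAMP5 2. RCC1L, its binding partner, was not analysed here.

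**Figure D4:**
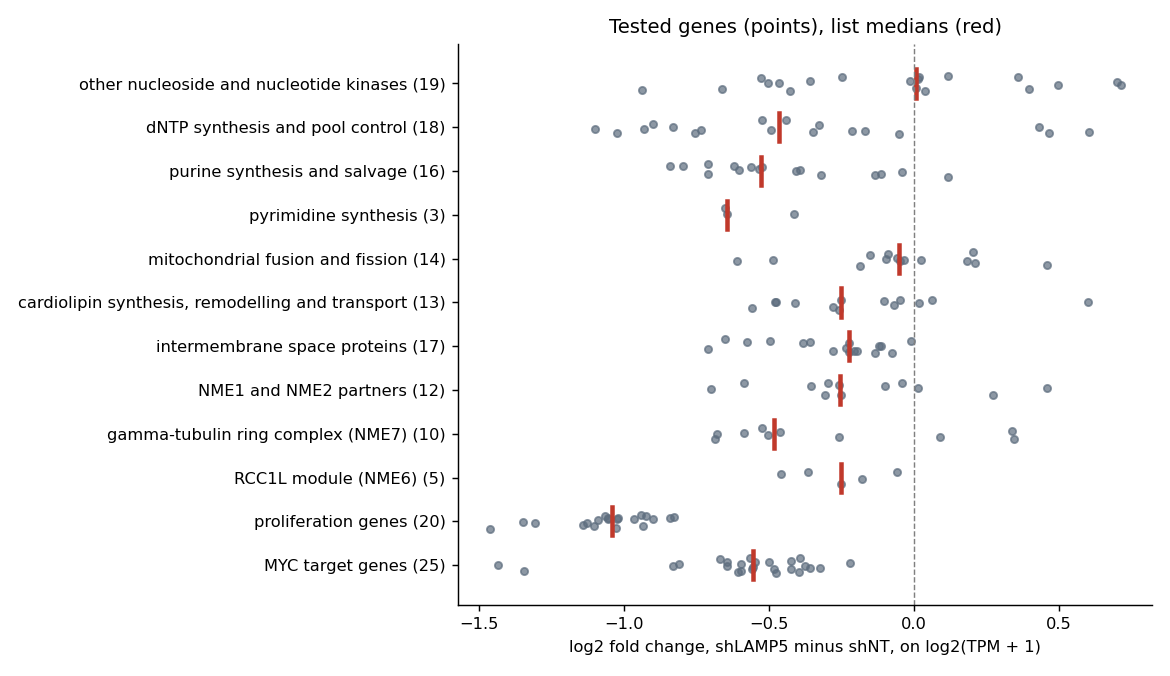
Log2 fold change (shLAMP5 minus shNT, on log2(TPM + 1)) of every tested gene in the lists around the NME kinases; points are genes, red lines are list medians and the number tested is in brackets. Proliferation genes have the lowest median, -1.04, and the other nucleoside and nucleotide kinases lie on both sides of 0 with a median of 0.009.

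Among proliferation genes and MYC targets, limma called none. With library weights it called 7 of 20 and 2 of 25, against 210 of all 13072 tested genes. All 20 proliferation genes had negative log2 fold changes and lay below both shNT libraries in all 4 shLAMP5 libraries, against 13.5% of all genes, with a median of -1.04, AURKA at -1.05 and TOP2A at -1.35. TYMS and RRM2 are in this list too. Over all 20 proliferation genes, mean log2(TPM + 1) was 6.43 and 6.45 in shNT and 5.75, 5.40, 4.88 and 5.49 in shLAMP5 1 to 4. All 25 MYC target genes were negative with a median of -0.56 (-0.35 with library weights), and 19 lay below both shNT libraries while the groups of the other 6 overlapped. SRM and HSPD1 were the lowest of them. The part of either list in the NME values was not tested.

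LAMP5 itself measured 170 and 282 TPM in shNT and between 65.6 and 86.7 TPM in shLAMP5, below both shNT libraries in all 4. Between 12192 and 12661 rows reached 1 TPM per library. Median scaling gave shLAMP5 2 a factor of 0.8732, against 0.9978 to 1.057 elsewhere. All 12 markers of a monocytic MLL-rearranged leukaemia line, such as CD33, PTPRC and SPI1, reached 1 TPM, and their sum lay between 2608 and 6717 TPM in shNT and between 1951 and 10475 TPM in shLAMP5. Most of that sum was LYZ, lysozyme, at 1984 and 6062 TPM in shNT and from 1397 to 9730 TPM in shLAMP5. PTPRC, CSF1R and HOXA9 lay above both shNT libraries in all 4 shLAMP5 libraries, with means at 183%, 253% and 127% of shNT. The gaps were narrow. CSF1R measured 20.8 and 8.33 TPM in shNT and 21.3, 24.9, 79.7 and 21.1 TPM in shLAMP5 1 to 4, so shLAMP5 3 raised its mean. The lowest shLAMP5 value was 27.7 TPM for PTPRC and 29.6 TPM for HOXA9, against 26.0 and 28.6 TPM in shNT 1. The groups of the other 9 markers overlapped, and 8.25% of all genes lay above both shNT libraries. The part of these differences in the NME values was not tested. Of 7 T cell markers 1 (CD3D) and of 6 B cell markers 1 (CD79A) reached 1 TPM, and no erythroid or megakaryocyte marker did. Fibroblast and packaging cell markers summed to between 27.0 and 38.8 TPM in all libraries, with KRT8 and KRT18 above 1 TPM in each and COL1A1 between 0.696 and 5.91 TPM.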

How the data were processed

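The authors deposited 1 table of Ensembl genes by 6 libraries, read as TPM from its values, whose library totals ran from 897026 to 912565. Per the submitters' processing notes, kallisto and hg19 were used. The sources used here give no version, transcript set or filter. Per the labels' protocols, total RNA was the input to a TruSeq kit, and strand is not mentioned. Groups came from the titles. Symbols were matched for 35558 rows.

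Log2(TPM + 1) was fitted with limma 3.58.1 (R 4.3.3) with a mean-variance trend, over rows that reached 1 TPM in 2 or more libraries, with Benjamini-Hochberg adjustment at 0.05, and the code was tested on simulated data. The members and lists were chosen with earlier results of these data known. Named are the members, LAMP5, neighbours of NME4 and NME3, and a fixed set of partners and related genes. The 5 genes most like NME4 and like NME1 are also named. So are the 2 members of each of 14 lists with the smallest p in each direction. Alternatives were other pseudocounts, filters, scalings, variance models, library weights, the replicate number as a block, and each library left out. Sequences came from GENCODE 29 and RefSeq (GRCh38), a build other than that of the files. Python 3.11.15 was used.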

Additional observations from a re-analysis of the deposited data

How the results depend on the processing

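The NME4 log2 fold change stayed negative in all 15 alternatives, between -2.04 and -1.53, as did NME1 (-0.70 to -0.32) and NME1-NME2 (-0.43 to -0.23). The other filters and the fit with no variance trend cannot move the estimate of a single row, so those alternatives were fixed in advance. NME2, NME3, NME6 and NME7 changed sign in some, within 1 residual SD of their main values. The summed row gave -0.37 in place of 0.32 for NME2. Genes called over the whole table were 0, and 14 with no filter, 210 with library weights (7 proliferation genes and 2 MYC targets among them) and 16 with the replicate block. Only replicate numbers 1 and 2 occur in both groups, so shLAMP5 3 and 4 do not inform the group difference under the replicate block. Same-numbered libraries deviated from their group means in opposite directions (correlation -0.52 for number 1 and -0.47 for number 2), so the numbers were not taken as pairs. With only 2 shNT libraries, their deviations are mirror images. Each correlation with shNT 2 is therefore that with shNT 1 with the sign reversed, and is no separate result. This correlation was 0.52 for shNT 2 with shLAMP5 1 and also with shLAMP5 4. For shNT 1 it was 0.47 with shLAMP5 2 and 0.28 with shLAMP5 3. What the libraries of these sets share was not tested. Under the replicate block NME4 was -1.70 and the median of the other nucleoside and nucleotide kinases was -0.17 in place of 0.009. That median lay between -0.067 and 0.109 with 1 library left out. The median of NME1 and NME2 partners was -0.13 with library weights and between -0.33 and -0.10 with 1 library left out. The median of the genes near members was 0.037 with the replicate block and between -0.044 and 0.13 with 1 library left out. The fusion and fission median was -0.118 without shLAMP5 1 and 0.065 without shLAMP5 2. The cause of these changes was not tested. Of the 60 other genes in the named set, 10 changed sign in at least 1 alternative.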
